A study of Mus musculus with 12 samples.

Results

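The effect of the kinase inhibitor BX795 by itself was read from 6 of the 12 RNA-seq libraries of the series, 3 labelled mock and 3 labelled BX795, which were chosen by those labels. All were from L929 cells, a fibroblast line from the subcutaneous connective tissue of a mouse of the C3H/An strain. Mock cells received the vehicle DMSO, the BX795 cells received 0.5 µM of the inhibitor, and neither group was labelled with plasmid DNA. The drug or vehicle was added 1 h ahead of a 6 h incubation in which the other 2 groups, pEGFP-N1 and BX795 plus pEGFP-N1, received a plasmid that encodes green fluorescent protein. A single protocol text, which mentions transfection, was deposited for all groups, so whether mock and BX795 cells received transfection reagent is not given in the sources used here. The study used BX795 to ask whether blocking the signals downstream of DNA sensing changes the expression of a transfected gene, and the present comparison gives what the drug did to the cells' own transcripts without plasmid. The unit of expression was FPKM, the fragments assigned to a gene scaled by its length and by the size of the library. Of the 17571 genes in the table, 10241 had at least 1 FPKM in at least 3 of the 6 libraries and were tested.

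BX795 was first made as an inhibitor of PDK1, the kinase that activates AKT and related kinases, and is now used mostly against TBK1 and IKKε, which phosphorylate IRF3 after DNA or RNA is sensed. It also binds other kinases, among them the salt-inducible kinases, Aurora B and the ULK kinases. In fibroblasts, growth factors act through ERK on the ETS factors and on phosphatases and adaptors that restrain ERK, while NF-κB, once released from its IκB inhibitors, induces those same inhibitors together with chemokines.

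Markers of fibroblasts were found at 1 FPKM or more for 12 of 15 genes, with a summed level of 7062 to 7301 FPKM in mock against 6713 to 7546 FPKM with BX795. No epithelial marker of 10 and no endothelial marker of 7 reached 1 FPKM. Of 7 adipocyte markers 3 did, with a summed level of 338 to 356 FPKM in mock against 334 to 369 FPKM with BX795, and Lep and Cebpa were listed at 0. Of 9 macrophage markers only Cd68, a lysosomal protein found in many cell types, did so, and Adgre1 and Tyrobp were listed at 0. Read totals cannot be worked back from FPKM, which leaves the depth unknown and the values without counting intervals. The sources do not say that the 3 libraries of a group came from separate cultures, so p-values measure the spread between these libraries, which may be technical. In bulk RNA, fewer cells of a kind and less RNA per cell cannot be told apart.

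BX795 replicate 1 stood apart within its group. Across genes its log2 values correlated at 0.9946 and 0.9938 with the other BX795 libraries, which correlated at 0.9973 with each other, and most highly, at 0.9976, with the library labelled BX795 plus pEGFP-N1 replicate 2. Cxcl10, an interferon-induced chemokine that fell below the filter and was singled out after its values were seen, was at 0.31, 0.47 and 0.42 FPKM in mock against 7.86, 0.90 and 1.85 FPKM in BX795 replicates 1 to 3. Counts for the main gene lists are therefore given with and without BX795 replicate 1. Outside the comparison, the libraries labelled pEGFP-N1 replicate 2 and BX795 plus pEGFP-N1 replicate 1 went against the rest of their labels, with values given at the end, and all libraries keep their labels throughout.

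BX795 changed many transcripts by small amounts. By limma on log2(FPKM + 1), 1324 genes rose and 830 fell at an adjusted p under 0.05, which is 12.9% and 8.1% of those tested. The median size of a called difference was 0.29 on the log2 scale, 1876 of the 2154 were under 0.5, and 16 of the genes that rose and 6 of those that fell differed by 1 or more. On this scale, which shrinks the folds of low genes, none passed the study's own limits of a false discovery rate of 0.001 and a log2 change of 2. Taken on the ratio of the mean FPKM, a choice made after seeing the data, 5 genes passed them, all higher: Cxcl2, Fas, Gm40378, Nr4a1 and Tnfaip3. Of these, Fas, Gm40378 and Nr4a1 met the filter through the BX795 libraries alone. In addition, 2272 genes were higher and 1515 lower at an unadjusted p under 0.05. The median over all genes was 0.03. With quantile normalization the calls were 1021 higher and 999 lower, so the share higher went from 61.5% to 50.5%.

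**Figure D1:**
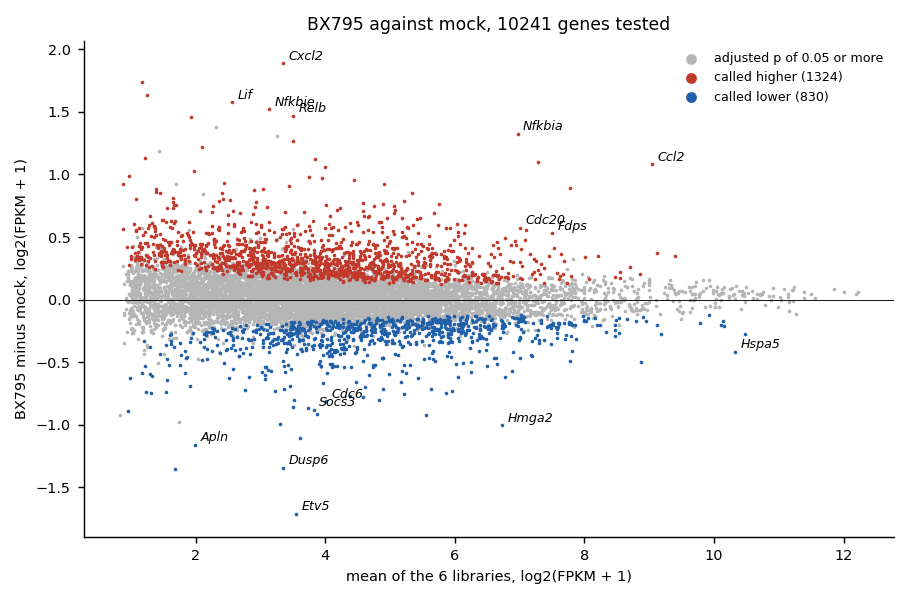
Difference between BX795 and mock on the log2(FPKM + 1) scale for each of 10241 genes, against the mean of the 6 libraries. Red points are the 1324 genes called higher and blue points the 830 called lower at an adjusted p under 0.05, most of them within 0.5 of the zero line.

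The number of calls depended on single libraries. Without BX795 replicate 1, 2667 genes were called higher and 1765 lower, 26% and 17.2% of those tested (30.4% and 20.8% at an unadjusted p under 0.05), and 2148 of the 2154 genes were among them. Calls in both directions came to 898, 994 and 1077 without mock replicate 1, 2 or 3, and to 1008 and 1145 without BX795 replicate 2 or 3. Without a library other than BX795 replicate 1, 571 to 702 genes were higher and 327 to 447 lower. The list counts below, for the same fits, are to be read beside these. The sign of all 2154 differences stayed the same whichever library was left out. These genes were called in the same libraries, so a change of sign was unlikely from the start. In each of the 6 fits, 753 genes (474 higher, 279 lower) were called. In a fit of all 12 libraries, 4 genes rose and 3 fell at an adjusted p under 0.05, which is 0.0391% and 0.0293% and together 0.0684% of those tested. At an unadjusted p under 0.05 there were 882 and 559, or 8.61% and 5.46%. The median residual standard deviation was 0.127 there and 0.0749 among the 6 libraries. The 7 genes were Gm40378, Tlr2, Ccl2, Tapbp, Abca1, Errfi1 and Epha2.

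The 15 largest increases included the NF-κB genes Nfkbie, Relb, Tnfaip3 and Nfkbia, the chemokines Cxcl2, Cxcl1 and Ccl2, and the cytokine Lif. The 15 largest decreases included the ETS factor Etv5 and the ERK phosphatases Dusp6 and Dusp4, beside genes of other kinds given below. Etv5, an ETS transcription factor of growth factor signalling, was at 19.4, 20.6 and 20.5 FPKM in the mock libraries and at 6.18, 4.83 and 5.40 FPKM with BX795. The groups were far apart, and Etv5 fell by 1.71 on the log2 scale (standard error 0.08, limma adjusted p = 1.4e-05). Of its 31-base words, 30.3% also occur in another annotated gene. Cxcl2, a neutrophil chemokine, was at 4.11, 4.14 and 4.59 FPKM in mock against 29.6, 15.5 and 13.8 FPKM with BX795. It rose by 1.89 (standard error 0.22, adjusted p = 0.000747), with replicate 1 the highest, and its difference was 1.57 without that library.

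**Figure D2:**
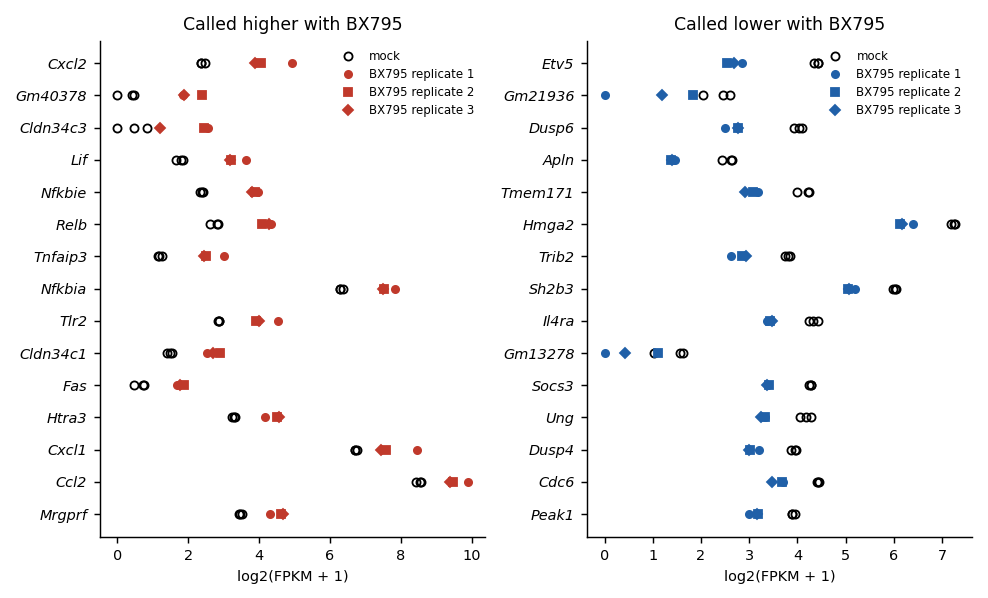
Expression of the 15 genes with the largest called increases (left) and the 15 with the largest called decreases (right), as log2(FPKM + 1), in each mock library (open circles) and each BX795 library (filled symbols, by replicate). The groups overlap for Gm13278 alone, and the chemokines, Lif, Tnfaip3 and Tlr2 are highest in BX795 replicate 1.

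Several leading genes lay outside these groups. Fas, the death receptor, was at 0.69, 0.65 and 0.39 FPKM in mock against 2.22, 2.69 and 2.41 FPKM with BX795, a difference of 1.13. Fas was 1 of 30 tested genes that were below 1 FPKM in each mock library and met the filter through the BX795 libraries alone, so its direction was in part set by the filter. This also holds for Gm40378, Nr4a1, Il6 and C3, and 21 of the 30 were called higher. Htra3, a secreted serine protease, rose by 1.12 and Mrgprf, an orphan receptor coupled to G proteins, by 1.06. Apln, which encodes the peptide ligand apelin, went from 5.21, 4.44 and 5.19 FPKM to 1.74, 1.60 and 1.62 FPKM, and its groups did not overlap. Tmem171 fell by 1.10, Sh2b3, an adaptor that restrains cytokine receptors, by 0.92, Ung, the uracil DNA glycosylase, by 0.87, and Peak1, a pseudokinase of the cytoskeleton, by 0.80. The predicted gene Gm40378, whose function is not known, was at 0.38, 0.33 and 0 FPKM in mock against 2.59, 4.20 and 2.68 FPKM with BX795, and rose by 1.74. Its sharing of sequence with other genes was not measured. Cldn34c3 and Gm21936 share 81.6% and 81.2% of their 31-base words with other genes and Gm13278 shares 100%, so how reads were divided among copies could change their values.

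Genes listed as responding to ERK formed the group with the lowest median of all lists examined. Of 27 tested members of 34 listed, 20 fell and 2 rose, where 8.1% of all genes fell, and their median difference was -0.51 against 0.03 over all genes. All lists were chosen with earlier results of these data known, so the counts and ranks of this and the other lists are descriptions. Dusp6, the phosphatase that removes phosphate from ERK in the cytoplasm, was at 15.3, 16.2 and 14.2 FPKM in mock against 4.64, 5.81 and 5.78 FPKM with BX795. It fell by 1.34 (standard error 0.08, adjusted p = 5.32e-05). The nuclear ERK phosphatase Dusp4 fell by 0.86, from 14.7, 14.4 and 13.7 FPKM to 8.18, 7.14 and 6.96 FPKM. Dusp5 fell by 0.62 and Dusp7 by 0.51.

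Other members that fell act at the receptors or close to them. Errfi1, an inhibitor of the epidermal growth factor receptor, went from 27.7, 24.5 and 26.1 FPKM to 14.8, 15.2 and 14.8 FPKM. Epha2, a receptor for ephrins, fell by 0.78, and Spry4, which restrains RAS signalling, by 0.61. Among nuclear members, the chromatin protein Hmga2 went from 153, 144 and 151 FPKM to 83.4, 68.5 and 70.8 FPKM, the ETS factor Etv4 fell by 0.66, and Ccnd1, the cyclin of early G1, fell by 0.62. Each BX795 library was below each mock library for all of these. The 2 members that rose were Lif, which is also an NF-κB target, and Bcl2l11, which encodes the BH3-only protein BIM and went from 7.19, 6.79 and 7.02 FPKM to 9.88, 9.88 and 10.6 FPKM. The list had 21 members lower and 3 higher without BX795 replicate 1 and 17 to 19 lower without any other library, and its median in BX795 replicates 1 to 3 was -0.40, -0.55 and -0.44 relative to mock.

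Not all growth factor genes moved with these. Of 18 tested dual-specificity phosphatases, 6 fell and 3 rose, the latter 1 to 2 without a library other than BX795 replicate 1. Growth factors and their receptors were divided, with 8 of 29 lower and 5 higher, or 5 to 7 lower without 1 such library. Fgf7, a fibroblast growth factor that acts on epithelium, rose by 0.77, from 21.8, 21.8 and 21.7 FPKM to 33.5, 40.8 and 39.3 FPKM. Immediate early genes, which serum induces within minutes, had 13 of 29 higher and 6 lower with a median of 0.16, and 15 and 9 without BX795 replicate 1. Junb, an AP-1 subunit, went from 18.1, 20.3 and 21.2 FPKM to 36.7, 32.7 and 32.4 FPKM, Fosl2 rose by 0.54, and the orphan nuclear receptor Nr4a1, which met the filter through the BX795 libraries alone, differed by 0.99, from below 0.5 FPKM in each mock library to 1.97, 1.61 and 1.68 FPKM. Myc was at 100, 101 and 96.8 FPKM in mock against 115, 95.0 and 90.3 FPKM with BX795, values that overlapped.

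Among NF-κB subunits, inhibitors and adaptors, 12 of 29 tested members rose, where 12.9% of all genes did, and none fell. The median was 0.14, and the larger increases were in feedback inhibitors and the subunits of the alternative pathway. Nfkbie, which encodes IκBε, was at 4.32, 3.99 and 4.20 FPKM in mock against 14.8, 13.8 and 12.95 FPKM with BX795, a rise of 1.52 (standard error 0.06, adjusted p = 1.4e-05). Nfkbia, which encodes IκBα, went from 76.7, 76.2 and 81.4 FPKM to 230, 185 and 180 FPKM. The spread within each group was small beside these gaps.

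Tnfaip3, the ubiquitin-editing enzyme A20, was at 1.22, 1.26 and 1.40 FPKM in mock against 7.07, 4.71 and 4.40 FPKM with BX795. Its partner Tnip1 rose by 0.69. Relb, a subunit of the alternative pathway, went from 5.18, 6.21 and 6.03 FPKM to 19.3, 16.1 and 18.3 FPKM. Nfkb2, whose product pairs with RelB, rose by 0.79 and the adaptor Traf1 by 1.03, while the subunits Rela and Nfkb1 rose by 0.22 and 0.29. Every BX795 value of Relb and Tnfaip3 was above every mock value.

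Genes known as NF-κB targets, among them chemokines, cytokines and enzymes such as Sod2, had the higher median, 0.56, with 15 of 21 tested members higher and none lower. Of the 15, Il6 and C3 met the filter through the BX795 libraries alone. Ccl2, a monocyte chemokine, was at 372, 376 and 341 FPKM in mock against 946, 717 and 668 FPKM with BX795, and Ccl7 was at 165, 155 and 160 FPKM and then 371, 272 and 261 FPKM. Cxcl1, a neutrophil chemokine, went from 103, 108 and 104 FPKM to 353, 191 and 171 FPKM. In these genes the groups did not overlap and BX795 replicate 1 was highest. Without it the differences were 0.93 for Ccl2, 0.73 for Ccl7 and 0.78 for Cxcl1. Lif, a cytokine of the interleukin-6 family, went from 2.14, 2.49 and 2.61 FPKM to 11.5, 8.24 and 8.13 FPKM, and the pattern receptor Tlr2 from 6.37, 6.37 and 6.19 FPKM to 21.97, 14.0 and 14.8 FPKM. Slpi, a secreted protease inhibitor, rose by 0.98 and was lowest with the drug in BX795 replicate 1, so the replicate was not the highest for every member.

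Of the 8 chemokine genes tested, 7 rose, and Ccl25 alone did not pass the test, with a difference of 0.03. Members of the target list without a call included Csf1, the macrophage growth factor, at -0.08, and Cd44, the hyaluronan receptor, at -0.19. Leaving out BX795 replicate 1 gave 15 higher in the target list, with 3 lower, and leaving out any other library gave 11 to 14 higher. For the subunits and inhibitors the numbers were 15 higher and 1 lower without BX795 replicate 1 and 10 to 11 without another library.

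The promoters of the NF-κB inhibitors and of Cxcl2 are shown because these genes moved together and because NF-κB binds the κB motif, a run of G and C bases around an AT-rich centre. Sequences are from RefSeq on GRCm38.p6, from 250 bases before the annotated start to 50 after it, 5′ to 3′ on the strand of the gene, with matches to the κB consensus on either strand in capitals. They lie at chr17:45555450-45555749 (Nfkbie, plus strand), chr12:55492598-55492897 (Nfkbia, minus strand), chr10:19015361-19015660 (Tnfaip3, minus strand) and chr5:90903649-90903948 (Cxcl2, plus strand).
Nfkbie: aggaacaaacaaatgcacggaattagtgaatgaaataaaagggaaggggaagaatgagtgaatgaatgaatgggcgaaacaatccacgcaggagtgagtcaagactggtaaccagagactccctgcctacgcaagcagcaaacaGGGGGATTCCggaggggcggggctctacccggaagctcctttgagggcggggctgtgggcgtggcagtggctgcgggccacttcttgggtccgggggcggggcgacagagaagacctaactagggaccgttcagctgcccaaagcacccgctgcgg
Nfkbia: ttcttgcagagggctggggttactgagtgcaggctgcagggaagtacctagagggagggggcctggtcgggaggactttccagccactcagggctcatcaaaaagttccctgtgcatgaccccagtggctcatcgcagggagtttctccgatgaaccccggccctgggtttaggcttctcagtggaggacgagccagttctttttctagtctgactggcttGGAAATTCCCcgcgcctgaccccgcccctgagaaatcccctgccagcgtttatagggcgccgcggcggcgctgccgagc
Tnfaip3: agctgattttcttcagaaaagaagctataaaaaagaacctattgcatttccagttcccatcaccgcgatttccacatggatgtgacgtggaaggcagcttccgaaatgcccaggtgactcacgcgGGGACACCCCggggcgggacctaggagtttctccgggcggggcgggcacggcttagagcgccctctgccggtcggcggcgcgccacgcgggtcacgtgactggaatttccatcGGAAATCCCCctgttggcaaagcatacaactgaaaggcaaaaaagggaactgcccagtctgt
Cxcl2: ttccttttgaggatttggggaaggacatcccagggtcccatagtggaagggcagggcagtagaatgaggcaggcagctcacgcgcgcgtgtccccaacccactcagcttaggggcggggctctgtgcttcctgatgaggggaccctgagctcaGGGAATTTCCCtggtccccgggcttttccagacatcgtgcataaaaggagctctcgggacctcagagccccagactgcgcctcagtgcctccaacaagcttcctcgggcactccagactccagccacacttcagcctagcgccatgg
A match was found in 8 of 23 promoters of the subunit and inhibitor list and in 6 of 15 of the target list, among members whose promoter was in the table. It was found in 4.97% of the promoters of 8284 tested genes, in 9.16% of those of genes called higher and in 4.23% of those of genes called lower. The 2 capital stretches of Cxcl2 overlap into a single run, and Tnfaip3 has a pair of separate matches, while its second annotated start, at chr10:19011914-19012213, has none. The promoter of Lif, which rose more than Nfkbie, held no match in this window. The ETS motif CCGGAAG, searched on both strands of the same windows, was in 1 of 20 promoters of the ERK list and in 20.6% of those of tested genes, and in neither Etv5 nor Dusp6. The AP-1 motif TGACTCA was in 3 of 20 promoters of the ERK list, 15%, in 3 of 23 and 3 of 15 of the lists of NF-κB factors and targets, 13% and 20%, and in 3.61% of those of tested genes. The FOXO motif GTAAACA was in 3 of 20 of the ERK list, 15%, in 3 of 27 of FOXO targets, 11.1%, and in 2.34% of those of tested genes. These are matches of letters only.

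**Figure D3:**
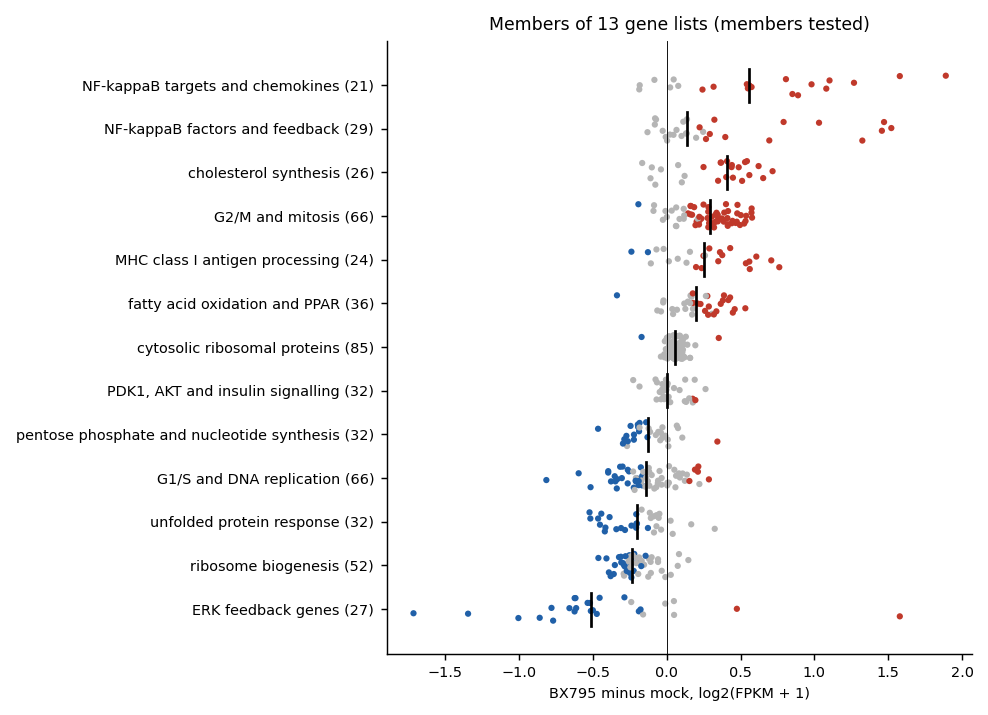
Difference between BX795 and mock, on the log2(FPKM + 1) scale, for each tested member of 13 gene lists (number of members in brackets). Red and blue points passed an adjusted p of 0.05 as higher or lower, grey points did not, and the black bars are medians, which run from -0.51 for ERK feedback genes to 0.56 for NF-κB targets.

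Genes of cytokine signalling through JAK and STAT moved in both directions, with 8 of 32 higher and 8 lower. That is 25% in each direction, where 12.9% and 8.1% of all genes were. There were 16 and 8 without BX795 replicate 1, where 26% and 17.2% of all genes were. Without another library there were 6 to 8 and 5 to 8. Those that fell included the receptors Il4ra, for interleukin 4, and Osmr, for oncostatin M, and the feedback inhibitor Socs3. Il4ra went from 20.4, 19.1 and 17.9 FPKM to 9.30, 9.77 and 10.04 FPKM, and Osmr fell by 0.66. Socs3 was at 18.4, 18.3 and 18.0 FPKM in mock against 9.48, 9.56 and 9.30 FPKM with BX795, a decrease of 0.88 (standard error 0.05, adjusted p = 3.85e-05) in libraries that hardly differed within a group. Stat3 fell by 0.30. Those that rose included Stat2, by 0.36, the kinase Tyk2, by 0.39, the receptor chains Il10rb, Ifnar2, Ifngr2 and Il6st, and Irf1, a transcription factor that NF-κB induces. Irf1 went from 12.7, 12.9 and 14.9 FPKM to 24.6, 21.7 and 23.01 FPKM.

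Interferon-stimulated genes had a median of 0.05 in cells without plasmid. Where 12.9% of all genes rose and 8.1% fell, 8 of 37 tested members of 78 listed rose (21.6%) and 1, Slfn9, fell (2.7%). Among those that rose were Ddx58, the RNA sensor RIG-I, by 0.44, Mov10, an RNA helicase, by 0.57, and Slfn2 by 0.76. Isg15, a ubiquitin-like protein, was at 1.46, 2.22 and 2.61 FPKM in mock against 3.76, 1.90 and 1.26 FPKM with BX795, values that overlapped (adjusted p = 0.919). Leaving out BX795 replicate 1 gave 13 higher and 4 lower, and without another library 6 to 7 higher. Members below the filter were not tested.

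Genes for antigen processing on MHC class I rose more often, 14 of 24 against 2 that fell, with a median of 0.25. Tapbp, the tapasin that loads peptide onto class I molecules, was at 38.8, 42.0 and 41.1 FPKM in mock against 67.4, 70.3 and 71.1 FPKM with BX795. Its relative Tapbpl rose by 0.71, the peptide transporter Tap2 by 0.43, and the immunoproteasome subunits Psmb8 and Psmb9 by 0.56 each. The heavy chain H2-Q4, which shares 38.4% of its 31-base words with other genes, rose by 0.61. The members that fell were Psme3, a proteasome activator of the nucleus, and the chaperone Calr. Without BX795 replicate 1 there were 17 higher and 2 lower, and 12 to 13 higher and 0 lower without any other library. Of 22 genes of DNA and RNA sensing and its partners, 5 rose and Ifi203 fell by 0.53. The 5 include the autophagy receptors Optn and Sqstm1, which bind TBK1 or its substrates, by 0.55 and 0.26. There were 8 higher and 2 lower without BX795 replicate 1, and 2 to 3 higher without another library.

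Among the transcripts of 18 tested kinases that BX795 binds and TBK1 adaptors, Sik1 rose by 0.60, and Sik2 and the adaptor Tbkbp1 fell by 0.23 and 0.19. There were 5 higher and 3 lower without BX795 replicate 1, where 26% and 17.2% of all genes were, but 1 and 0 without another library. Tbk1 itself was at 21.9, 20.9 and 20.9 FPKM in mock against 19.5, 19.3 and 18.7 FPKM with BX795, a difference of -0.14 (adjusted p = 0.0584), and Ikbke, which encodes IKKε, was at 4.40, 4.33 and 4.08 FPKM and then 5.26, 5.03 and 4.62 FPKM (0.18, adjusted p = 0.0884). Pdpk1, which encodes PDK1, overlapped between the groups at 12.7, 12.5 and 13.4 FPKM and 12.1, 12.4 and 13.01 FPKM. The list from the insulin receptor to AKT and mTOR had a median of 0.00, with 2 of 32 members higher, the regulatory subunit Pik3r2 by 0.18 and Tsc2 by 0.19, and none lower, against 7 higher without BX795 replicate 1 and 0 to 1 without another library.

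Targets of FOXO, the factors that AKT keeps out of the nucleus, were shifted up with exceptions. Of 30 tested, 8 rose and 2 fell, 26.7% and 6.67% where 12.9% and 8.1% of all genes did, with a median of 0.16. Ccng2, a cyclin of quiescent cells, went from 11.6, 12.5 and 13.01 FPKM to 18.1, 20.2 and 22.7 FPKM. Txnip, which binds thioredoxin, rose by 0.35 and Bbc3, the BH3-only protein PUMA, by 0.47. Trib2, a pseudokinase, fell by 0.995 on the log2 scale, from 13.04, 13.3 and 12.4 FPKM to 5.18, 6.16 and 6.64 FPKM. The list median was 0.05 in BX795 replicate 1 and 0.18 in each of the other 2 libraries. Without replicate 1, 16 members rose and 5 fell, against 4 to 5 and 2 without another library.

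Genes of the G1/S transition and of mitosis shifted in opposite directions. Among 66 genes of G2/M and mitosis, 51 rose and 1, Bub3, fell, with a median of 0.29. Among 66 genes of G1/S and DNA replication, 25 fell and 5 rose, with a median of -0.14. Cdc20, the activator of the anaphase-promoting complex, was at 103, 102 and 109 FPKM in mock against 156, 155 and 157 FPKM with BX795, a rise of 0.58 (standard error 0.04, adjusted p = 7.05e-05). The mitotic kinesin Kif20a went from 30.3, 30.1 and 30.9 FPKM to 45.0, 47.5 and 45.3 FPKM, Kif2c rose by 0.54, the spindle factor Tpx2 by 0.47, and the cyclins Ccnb1 and Ccnb2 by 0.37 and 0.53. Cdc20 shares 25.5% of its 31-base words with another gene, and the groups did not overlap for it or for Kif20a.

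Licensing and replication genes gave the decreases of the G1/S list. Cdc6, which loads the replicative helicase, was at 20.7, 20.2 and 20.5 FPKM in mock against 11.9, 11.8 and 10.1 FPKM with BX795. The cyclins Ccne1 and Ccne2 fell by 0.60 and 0.51, the helicase subunit Mcm3 by 0.34, the sliding clamp Pcna by 0.31, and Clspn, a checkpoint adaptor at the fork, by 0.38. The 5 that rose were Tk1, Pold1, Ccna2, Rad54l and Dbf4, by 0.15 to 0.29, against 9 without BX795 replicate 1 and 1 to 2 without another library. The mitosis list had a median of 0.32, 0.28 and 0.29 in BX795 replicates 1 to 3, and the G1/S list -0.08, -0.16 and -0.16. Without BX795 replicate 1 the calls were 53 higher in mitosis and 38 lower in G1/S, and without another library 36 to 41 and 16 to 18. Of 26 kinesins, 11 rose and none fell, 7 to 10 without a library other than BX795 replicate 1, most of them mitotic and also in the G2/M list. A larger share of cells in a phase and more transcript per cell cannot be told apart here.

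CDK inhibitors and targets of p53 rose in 15 of 34 cases with 1 lower, Plk3, and a median of 0.23. There were 19 higher and 4 lower without BX795 replicate 1, and 11 to 13 higher without another library. Cdkn1a, which encodes p21, was at 54.0, 55.0 and 54.2 FPKM in mock against 77.8, 77.7 and 78.4 FPKM with BX795 (0.51, adjusted p = 7.27e-05). Gadd45b, a stress gene that NF-κB also induces, went from 23.97, 24.1 and 26.2 FPKM to 46.0, 40.1 and 40.6 FPKM. Ckap2, a spindle protein, rose by 0.50, and Mdm2, the p53 ubiquitin ligase, overlapped between the groups with a difference of 0.11. Cell death genes were mixed, 8 of 37 lower and 5 higher, 21.6% and 13.5% where 8.1% and 12.9% of all genes were. There were 11 and 9 without BX795 replicate 1, and 6 to 7 and 3 without another library. Both lists count Fas, a death receptor that met the filter through the BX795 libraries alone, among the genes that rose. Bcl2l1, which encodes the survival protein BCL-XL, went from 47.5, 50.7 and 44.2 FPKM to 23.9, 28.8 and 30.6 FPKM, Mlkl, the effector of necroptosis, from 20.6, 18.8 and 16.6 FPKM to 11.8, 11.0 and 11.3 FPKM, and the decoy receptor Tnfrsf26 fell by 0.73. Of 12 tested genes with Tnfsf or Tnfrsf symbols, a set that leaves out Fas and Cd40, 4 fell and 1, Tnfrsf9, rose. Cd40, a receptor of the same superfamily, rose by 0.55.

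Of 32 genes of the unfolded protein response 17 fell and none rose, with a median of -0.20. Hyou1, an endoplasmic reticulum chaperone, was at 120, 121 and 117 FPKM in mock against 84.7, 83.5 and 81.4 FPKM with BX795 (-0.52, adjusted p = 7.89e-05). Hspa5, which encodes BiP, went from 1466, 1465 and 1527 FPKM to 1143, 1111 and 1082 FPKM. The cofactors Sdf2l1 and Creld2 fell by 0.46 and 0.44, and Atf6, a sensor of the response, fell by 0.52. The list median was -0.23, -0.14 and -0.20 in BX795 replicates 1 to 3, and 18 members fell and 2 rose without replicate 1, while 12 to 16 fell without another library. The ATF4 and amino acid list was mixed, 6 of 35 lower and 4 higher, with 16 lower without BX795 replicate 1 and 1 to 3 without another library. Chac1, which degrades glutathione, fell by 0.58, and Cebpb, a transcription factor, rose by 0.55.

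Genes for building ribosomes fell in 26 of 52 cases and none rose, with a median of -0.24, but the size of this shift differed between the BX795 libraries. Their medians were -0.07, -0.32 and -0.30 in replicates 1 to 3. Npm1, a nucleolar chaperone, was at 1624, 1542 and 1536 FPKM in mock against 1371, 1257 and 1251 FPKM with BX795, and 29.2% of its 31-base words occur in other genes. Fbl, the methyltransferase of ribosomal RNA, went from 252, 246 and 241 FPKM to 208, 215 and 219 FPKM. Noc2l, a nucleolar protein, was at 101, 101 and 101 FPKM and then 90.2, 72.5 and 74.2 FPKM, where replicate 1 lay between mock and the other BX795 libraries. Without replicate 1, 44 members fell and 1 rose, and without any other library 3 to 7 fell.

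Other biosynthetic groups were lower by less. Nucleotide synthesis had 14 of 32 lower and 1 higher with a median of -0.13, among them Shmt1, a serine hydroxymethyltransferase, by -0.46, and Gart, of purine synthesis, by -0.29. Without another library than BX795 replicate 1, 4 were lower. Heat shock chaperones had 7 of 28 lower, 17 without BX795 replicate 1 and 1 without any other library, such as Cacybp by -0.32, and Hspa1b, an inducible HSP70 that shares 68% of its 31-base words, rose by 0.56. Of 22 cytosolic tRNA synthetases and their partners 3 fell, with 14 without BX795 replicate 1 and 0 to 1 without another library. Translation factors had 8 of 62 lower and 1 higher, proteasome subunits 6 of 37 lower and 3 higher (2 of these the immunoproteasome subunits above), and splicing factors 8 of 59 lower and 4 higher. The shares lower were 12.9%, 16.2% and 13.6%, where 8.1% of all genes were. Those lower numbered 27, 22 and 26 without BX795 replicate 1, but 0 to 1, 1 to 2 and 1 to 4 without another library. Those higher numbered 10, 3 and 5 without BX795 replicate 1. The kinase Clk1, which phosphorylates splicing factors, rose by 0.41.

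Ribosomal protein genes and the respiratory chain held slight positive differences. Of 85 cytosolic ribosomal proteins 77 were above 0, where 56.6% of all genes were, but 1 rose and 1 fell, and the median was 0.05. The medians were -0.02, 0.11 and 0.09 in BX795 replicates 1 to 3, and 0.04 in mock replicate 2, so the shift was of the size of the spread in mock. Without BX795 replicate 1, 41 members were called higher, and without another library 0 to 1. For complex I, 33 of 36 subunits were above 0 with 4 called, and for complexes II to IV and ATP synthase 39 of 43 with 4 higher and 1 lower. These counts were 20 and 26 higher without BX795 replicate 1, and 0 to 2 in both lists without another library. With all 6 libraries the shares higher were 11.1% and 9.3%, where 12.9% of all genes rose. The medians of these lists in BX795 replicate 1, 0.03 and 0.02, were below those in mock replicate 2, 0.05 and 0.04. Mitochondrial ribosomal proteins had a median of -0.004, with 4 of 75 higher and 2 lower, against 12 each without BX795 replicate 1 and 1 to 3 and 0 without another library.

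Genes of cholesterol synthesis rose in 18 of 26 cases and none fell, with a median of 0.41. Fdft1, the squalene synthase, was at 12.8, 13.8 and 13.1 FPKM in mock against 20.3, 23.4 and 23.4 FPKM with BX795, a rise of 0.72 (standard error 0.06, adjusted p = 0.000196). Fdps, which makes farnesyl diphosphate and shares 27.9% of its 31-base words, went from 146, 150 and 152 FPKM to 218, 212 and 218 FPKM, and Mvk, the mevalonate kinase, from 21.6, 22.9 and 22.8 FPKM to 36.1, 32.3 and 36.7 FPKM. Msmo1, a sterol demethylase, rose by 0.54. The list medians were 0.34, 0.40 and 0.36 in BX795 replicates 1 to 3. Without replicate 1, 19 members rose and 2 fell, and 16 to 18 rose when another library was left out.

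Fatty acid synthesis had a median near 0, with 6 of 27 higher, among them the desaturases Scd1 and Scd2 by 0.34 and 0.32, and 3 lower, among them Lpin3 by -0.32, with 8 and 6 without BX795 replicate 1. Fatty acid oxidation rose in 18 of 36 cases with a median of 0.20, and Ppargc1b alone fell. Acads, the dehydrogenase of short acyl chains, went from 17.1, 17.3 and 17.1 FPKM to 21.6, 25.3 and 25.3 FPKM, Cpt1a, which carries acyl chains to mitochondria, rose by 0.45, Echs1, an enoyl-CoA hydratase, by 0.38 and Plin2, which coats lipid droplets, by 0.37. This list had 25 higher without BX795 replicate 1 and 8 to 10 without another library. Targets of the liver X receptors had 3 of 16 higher and 1 lower, 18.8% and 6.25%, where 12.9% and 8.1% of all genes were. Their median was 0.08, with 12 members above 0. There were 8 higher and 1 lower without BX795 replicate 1, and 1 to 2 higher and 1 lower without another library. Abca1, which exports cholesterol, was at 3.05, 2.70 and 2.49 FPKM in mock against 1.01, 1.31 and 1.43 FPKM with BX795, a decrease of 0.74, and Pltp, the phospholipid transfer protein, went from 31.2, 32.2 and 33.4 FPKM to 44.5, 51.6 and 52.3 FPKM.

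Lysosome and autophagy genes had medians of 0.08 and 0.12, with 8 of 54 and 5 of 42 higher and none lower. These shares, 14.8% and 11.9%, were near the 12.9% of all genes. Without BX795 replicate 1, 24 and 22 were higher and 3 and 1 lower, and without another library 2 to 3 and 1 to 3 were higher. Gla, a lysosomal galactosidase, went from 10.5, 10.2 and 9.96 FPKM to 14.5, 15.6 and 16.4 FPKM. Clock genes rose in 9 of 21 cases and none fell, with a median of 0.19. There were 12 higher and 2 lower without BX795 replicate 1, and 5 to 7 higher without another library. Dbp, an output factor of the clock, was at 4.24, 5.26 and 4.98 FPKM in mock against 6.55, 9.66 and 9.05 FPKM with BX795, and Per1, a core repressor that cAMP also induces, went from 5.22, 5.72 and 5.65 FPKM to 8.67, 9.15 and 8.82 FPKM. Both metallothioneins were lower, Mt1 by -0.17 and Mt2 by -0.21, but 0 to 1 of them without a library other than BX795 replicate 1.

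**Figure D4:**
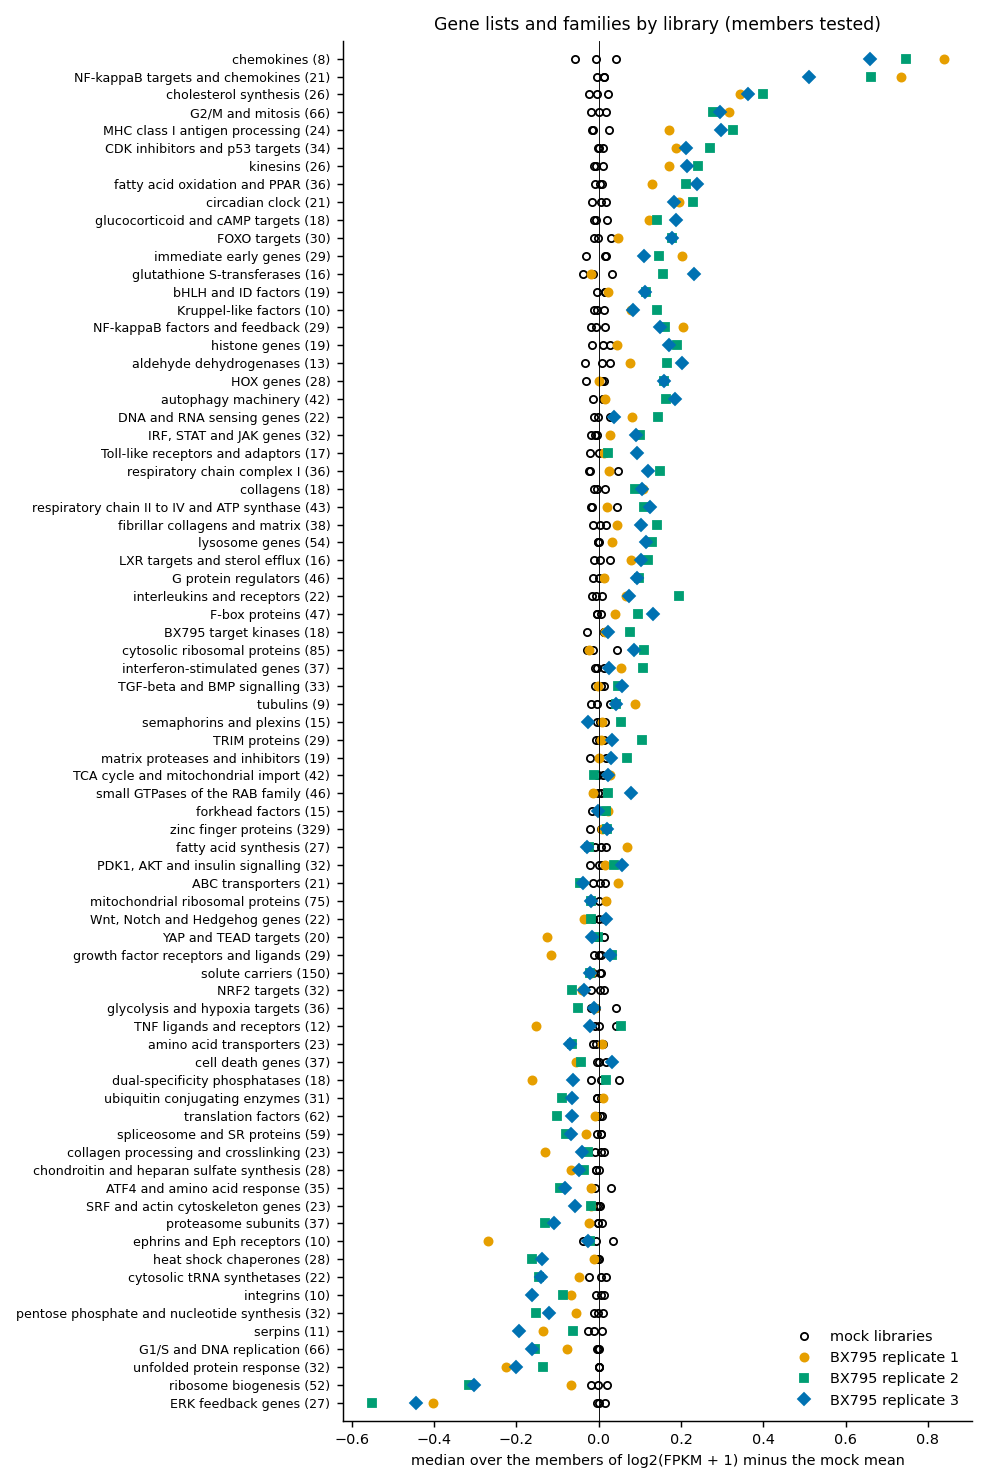
Median over the tested members of each gene list or family of log2(FPKM + 1) minus the mock mean, for the mock libraries (open circles) and each BX795 library (filled symbols). Medians run from the ERK feedback genes to the chemokines, and BX795 replicate 1 lies nearer 0 than the other BX795 libraries for ribosome biogenesis (-0.07 against -0.32 and -0.30).

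In the matrix, collagens and other structural proteins rose more often than they fell, 14 of 38 against 5, with a median of 0.08. There were 22 higher and 6 lower without BX795 replicate 1, and 7 to 10 higher without another library. Col6a1, a chain of collagen VI, was at 37.8, 39.3 and 37.9 FPKM in mock against 52.4, 52.5 and 50.8 FPKM with BX795, and Col6a2 rose by 0.40, while the third chain, Col6a3, fell by 0.33. Col1a1 rose by 0.30. Lamb1, a laminin chain, went from 57.9, 58.6 and 58.7 FPKM to 41.9, 42.4 and 41.1 FPKM, and Ltbp1, which holds latent TGF-β, fell by 0.44. Enzymes and chaperones of collagen processing fell in 5 of 23 cases and none rose, but 4 rose and 6 fell without BX795 replicate 1, and 3 to 4 fell without another library. Loxl3, a lysyl oxidase, went from 13.3, 12.7 and 13.1 FPKM to 7.21, 7.86 and 7.94 FPKM, and the collagen chaperone Serpinh1 fell by 0.20. Timp1, an inhibitor of matrix proteases, fell by 0.53 and Adamts7, a protease, rose by 0.53.

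In the TGF-β and BMP list 5 of 33 rose and 2 fell, 15.2% and 6.06%, where 12.9% and 8.1% of all genes did. There were 11 and 4 without BX795 replicate 1, and 3 to 4 and 1 to 2 without another library. The median was 0.05 and turned to -0.01 under quantile normalization. Id3 went from 18.2, 22.4 and 21.7 FPKM to 33.0, 43.9 and 44.3 FPKM and Id1, its relative, from 44.3, 46.7 and 49.0 FPKM to 27.3, 34.5 and 35.0 FPKM, both of them inhibitors of helix-loop-helix factors. The Wnt, Notch and Hedgehog list had a median of -0.02 with 12 of 22 members below 0. In it 4 rose, which is 18.2%, and none fell, with 5 higher and 2 lower without BX795 replicate 1 and 1 to 2 higher without another library. The furthest was Wnt10b, a Wnt ligand, from 5.20, 5.17 and 4.76 FPKM to 9.03, 11.2 and 10.3 FPKM. Genes of SRF and the actin cytoskeleton had 5 of 23 lower (21.7%) and 2 higher (8.7%). There were 10 lower and 5 higher without BX795 replicate 1, and 1 to 3 lower without another library. Targets of YAP had 4 of 20 lower (20%) and 2 higher (10%), or 1 to 4 lower without 1 library other than BX795 replicate 1. Of these, Ankrd1, a muscle-type repeat protein, fell by 0.57. Among hypoxia genes, the prolyl hydroxylase Egln3 went from 79.1, 73.5 and 84.9 FPKM to 51.9, 46.0 and 44.4 FPKM and the peptide Adm fell by 0.51. In the list of glycolysis and hypoxia genes 4 of 36 fell and 5 rose, 11.1% and 13.9%, where 8.1% and 12.9% of all genes did. The median was -0.03, and 23 members were below 0, where 43.4% of all genes were. There were 11 lower and 8 higher without BX795 replicate 1, and 2 to 3 lower and 1 to 3 higher without another library.

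In large families of no single pathway the shares called lay on both sides of the background, 12.9% higher and 8.1% lower. Of 329 zinc finger proteins 12 rose and 10 fell, which is 3.65% and 3.04%, with a median of 0.01 that was -0.04 under quantile normalization. RAB GTPases had 4 of 46 in each direction, or 8.7%. The counts without BX795 replicate 1 were 35 and 22 for zinc fingers and 11 and 5 for RAB genes, and without another library 3 to 6 and 4 to 8, and 1 to 3 and 1 to 2. Of 150 solute carriers 14 rose and 18 fell, 9.33% and 12%, and of 47 F-box proteins 4 rose and 2 fell, 8.51% and 4.26%. Some of the solute carriers tested met the filter through the BX795 libraries alone. Leaving out BX795 replicate 1 gave 27 and 36 solute carriers and 17 and 2 F-box genes, and leaving out another library 6 to 9 and 4 to 6, and 1 and 1 to 2. HOX genes had 6 of 28 higher and 1 lower, 21.4% and 3.57%, with a median of 0.13 that was 0.00 in BX795 replicate 1. Leaving that library out gave 13 higher and 1 lower, and leaving out another gave 1 to 2 and 0.

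The effect of the drug in transfected cells could not be read from the labels in the same way. For BX795 plus pEGFP-N1 against pEGFP-N1 as labelled, limma called 0 genes, with 37 at an unadjusted p under 0.05, and the difference between the drug effects without and with plasmid gave 0 calls, with 401 at an unadjusted p under 0.05. The latter were 3.92% of the genes, 1.49% higher and 2.42% lower. The 1324 genes that rose with BX795 alone had a median of 0.34 over mock in the library labelled pEGFP-N1 replicate 2, as in BX795 replicates 2 and 3, and Isg15 was at 1.38 FPKM there. In the library labelled BX795 plus pEGFP-N1 replicate 1 the same median was -0.04 and Isg15 was at 144 FPKM, as in pEGFP-N1 replicates 1 and 3. Whether labels were exchanged was not tested, and the calls of 0 hold only for the labels as given. Those medians are descriptions, since the genes were chosen on the BX795 and mock libraries.

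**Figure D5:**
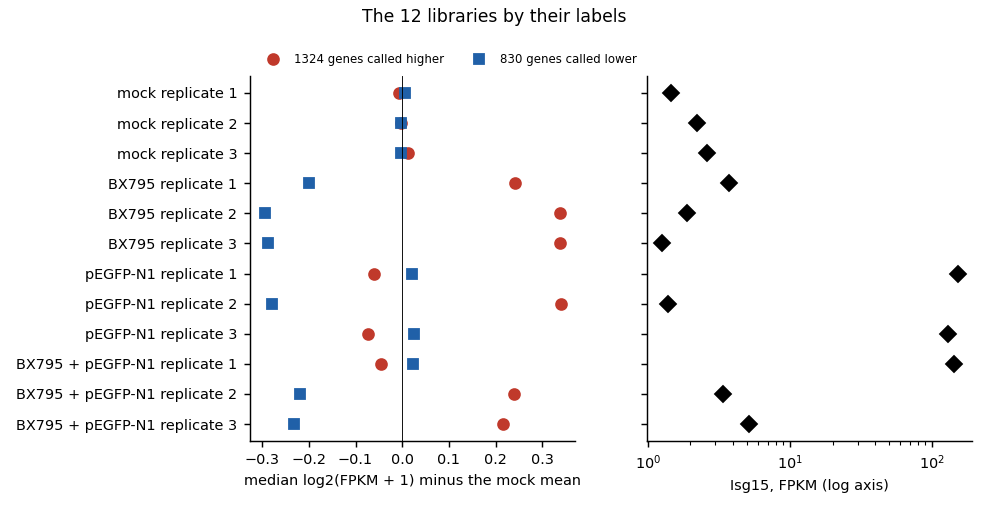
Left, median over the 1324 genes called higher and the 830 called lower with BX795 alone of log2(FPKM + 1) minus the mock mean in each of the 12 libraries by label. Right, Isg15 in FPKM on a log axis, which is above 100 in the library labelled BX795 plus pEGFP-N1 replicate 1 and 1.38 in the library labelled pEGFP-N1 replicate 2.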

How the data were processed

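Values were FPKM per gene, deposited by the authors to 2 decimals in a single table of the 12 libraries. Per the methods and labels, RNA was extracted with Trizol and sequenced on the BGISEQ-500, and reads were aligned to GRCm38.p5 transcripts with Bowtie2 2.2.5, keeping up to 200 alignments a read, and quantified with RSEM 1.2.12. Of the gene IDs, 17450 were matched to RefSeq symbols and 121 were not. FPKM sums were 495633 to 508567 in the 6 libraries compared. Whole reads could not be recovered: 47.3% of 275 low values lay within 0.1 of a whole multiple, so no count test was run.

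Groups were taken from the labelled agent. Values were analysed as log2(FPKM + 1), a scale that understates the change of low genes, with limma 3.58.1 (trend, R 4.3.3), for genes at 1 FPKM or more in 3 of the 6 libraries. P-values were adjusted by Benjamini-Hochberg over all 10241 genes and called at 0.05. On simulated data for this comparison (200 genes changed of 10241), 83%, 99% and 100% of changes of 0.5, 1 and 2 on the log2 scale were recovered, with 7.26%, 5.71% and 5.21% of the calls false. Of the 2154 calls made, 1876 were under 0.5, the smallest size tried. Alternatives were another pseudocount, filter, normalization, a fit of all 4 groups, a replicate block and leaving out each library.

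Gene lists and members were chosen with earlier results of these data known. Genes were named if among the 15 called genes with the largest change in a direction, among up to 8 in a direction with an unadjusted p under 0.01 and no overlap between the groups, or among up to 4 members of a list with the smallest p, with Tbk1, Ikbke and Pdpk1 added. The following were named after their values were seen: Atf6, Bcl2l1, Bcl2l11, Bub3, C3, Calr, Ccl25, Ccna2, Ccnb1, Ccnb2, Ccnd1, Ccne1, Ccne2, Cd40, Cd44, Col6a3, Csf1, Cxcl10, Dbf4, Etv4, Ifnar2, Ifngr2, Il6, Il6st, Isg15, Mdm2, Myc, Nfkb1, Nfkb2, Plk3, Pold1, Ppargc1b, Psme3, Rad54l, Rela, Slfn9, Spry4, Stat2, Stat3, Tk1, Tnfrsf9, Traf1 and Tyk2. Shared 31-base words were counted in GENCODE M21 transcripts, and promoters are RefSeq sequences.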

Additional observations from a re-analysis of the deposited data

Results flagged for a closer look

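Libraries outside the comparison carried the difference between BX795 and mock. Over the 1324 genes called higher and the 830 called lower with BX795 alone, the median of log2(FPKM + 1) minus the mock mean was 0.339 and -0.28 in the library labelled pEGFP-N1 replicate 2, although its label names no inhibitor. The medians were 0.239 and -0.219 in BX795 plus pEGFP-N1 replicate 2, and 0.216 and -0.231 in replicate 3 of that group. In mock the medians for genes called higher were -0.0061, -0.0023 and 0.0124. BX795 replicate 1, in the comparison itself, was closest to BX795 plus pEGFP-N1 replicate 2. Whether labels were exchanged, which bears on the 0 calls for the transfected libraries and on the 1324 and 830 calls, was not tested.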

How the results depend on the processing

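Against 1324 genes higher and 830 lower, the counts were 845 and 519 with no filter on low values, 4 and 3 in the fit of all 4 groups (882 and 559 at an unadjusted p under 0.05), 0 and 0 at the study's thresholds on the log2(FPKM + 1) scale, and 5 and 0 with those thresholds on the ratio of mean FPKM (chosen after seeing the data). Leaving out 1 library gave 571 to 2667 higher and 327 to 1765 lower, the highest both without BX795 replicate 1. Under quantile normalization the median turned to -0.0563 for matrix proteases, -0.0133 for TGF-β and BMP genes, -0.0389 for semaphorins and plexins, -0.0025 for interleukins, -0.0017 for predicted genes and -0.0255 for RIKEN genes. With a mean FPKM of at least 5 it was -0.0063 for semaphorins and plexins and -0.0679 for Kruppel-like factors. With 1 library left out it ran from -0.0079 (without BX795 replicate 1) to 0.0459 for matrix proteases and from -0.1773 to 0.0010 (without BX795 replicate 1) for ephrins and Eph receptors. The cause of these changes was not tested. Of 1344 list medians under an alternative, 1222 moved by less than the replicate spread, 112 moved further and 10 changed sign from a value beyond that spread. Counting changes of any size, 43 of these values, in 18 lists, had the other sign. Of 4914 values of 310 named genes, 4123 kept their side of the threshold, 758 lost the call and 33 gained one.

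With the replicate number as a block, 1423 genes were higher and 875 lower (2344 and 1525 unadjusted), and the comparisons of transfected libraries gave 0 calls, as they did without it (37 and 401 unadjusted). The numbers did not pair the samples by the limit of 0.1: same-numbered mock and BX795 libraries correlated at 0.035, 0.028 and 0.052 in their deviations, though each correlated best with its own number, a hint from the data and not the design. Depth is unknown, so what it limits at low FPKM cannot be given.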
